A study of Mus musculus with 14 samples.

Results

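Brain was set against 12 non-neural tissues (colon, heart, kidney, liver, lung, oesophagus, ovary, pancreas, small intestine, spleen, stomach and uterus) of C57BL/6J mice, an inbred laboratory strain, by sequencing of microRNAs (miRNAs). These are 13 of the 14 libraries of the series, each made from pooled total RNA of 1 tissue. Cerebellum, the fourteenth, was left out of the 12 because it is itself neural, and its value is given beside that of brain. No genotype, treatment, sex or age beyond the strain is used here, and the labels mention both 5 and 10 mice, so the size of a pool is uncertain. Of 1046 miRNA names in the table, 802 had a read in these 13 libraries, and the 449 that reached 10 RPM in at least 1 of them are described. RPM stands for reads per 1000000 reads other than miR-143, which is kept out of the totals because it took between 4.01% and 98.7% of a library.

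MicroRNAs are short RNAs that guide Argonaute proteins to messenger RNAs, and their seed, bases 2 to 8 from the 5′ end, largely sets which messengers they pair with. Several are known as neural miRNAs: miR-124 in neurons, miR-9 in neural progenitors and neurons, miR-128 and miR-137 in neurons of the forebrain. Others serve as markers of tissues that brain lacks, such as the miR-200 family of epithelia, and the miR-10 genes lie in the Hox clusters, which pattern the body axis behind the forebrain.

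The first set of sequences is shown because these miRNAs carry the contrast in favour of brain. The seed is in capitals, and every sequence is the mature mouse miRNA in RefSeq (GRCm38.p6), 5′ to 3′. miR-384-5p is set beside miR-30a because the pair shares a seed, while brain was the highest library for the first and not for the second.
miR-9: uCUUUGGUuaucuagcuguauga
miR-9*: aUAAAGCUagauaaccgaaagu
miR-128: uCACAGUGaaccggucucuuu
miR-137: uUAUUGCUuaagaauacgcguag
miR-138: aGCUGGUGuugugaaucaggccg
miR-132: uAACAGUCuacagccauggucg
miR-153: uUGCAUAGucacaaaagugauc
miR-873: gCAGGAACuugugagucuccu
miR-384-5p: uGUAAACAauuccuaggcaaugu
miR-30a: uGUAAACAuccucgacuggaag

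The second set comes from the imprinted Dlk1-Dio3 region, where many miRNA hairpins stand in tandem. miR-376a and miR-376b look alike, yet their seeds are different strings of letters.
miR-379: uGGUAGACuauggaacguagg
miR-127: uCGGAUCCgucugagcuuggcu
miR-434-3p: uUUGAACCaucacucgacuccu
miR-382: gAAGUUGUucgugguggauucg
miR-376a: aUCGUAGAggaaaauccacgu
miR-376b: aUCAUAGAggaacauccacuu

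The third set was low in brain and falls into families with 1 seed each, which is the reason for showing the relatives together. The starred or arm-marked names used below are those of the deposited table, in which a star marks the arm once taken as the minor one.
miR-10a: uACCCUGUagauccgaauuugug
miR-10b: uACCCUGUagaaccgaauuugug
miR-200b: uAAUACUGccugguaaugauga
miR-200c: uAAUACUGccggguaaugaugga
miR-429: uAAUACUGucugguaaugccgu
miR-141: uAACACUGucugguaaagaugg
miR-200a: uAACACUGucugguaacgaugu
miR-199a-3p: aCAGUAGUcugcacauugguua
miR-148a: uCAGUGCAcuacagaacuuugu
miR-152: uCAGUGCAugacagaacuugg

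In all, 639 names of the table were matched to a RefSeq sequence, among them 353 of the 449 described, and they held 94.96% of the brain reads other than miR-143. miR-124, miR-383, miR-219-3p, miR-376c and miR-598 are named without a sequence.

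The brain library held 4980900 reads other than miR-143, while colon had 86545, ovary 292350, pancreas 597154 and the remaining non-neural libraries 2308461 to 6502821. A single read was therefore worth 0.201 RPM in brain and 11.6 RPM in the library labelled colon. Where a miRNA had no read, the limit set by 3 reads was 34.7 RPM for colon, 10.3 RPM for ovary, 5.02 RPM for pancreas and 0.602 RPM for brain. The intestinal miRNA miR-215 stood at 118373 RPM in the library labelled uterus and at 346.6 RPM in the one labelled colon, which goes against both labels. The counts of names called are therefore also given without these libraries. With 1 library per tissue there is no replicate and no test between tissues. A miRNA was instead called higher where it reached 100 RPM in brain and exceeded the highest of the 12 by 4-fold or more. It was called lower where the median of the 12 reached 100 RPM and exceeded brain by 4-fold or more. For both rules 1 RPM was added to each value. Intervals are exact, at 95%, and cover counting error only.

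The 4 neural markers stood far above every non-neural library in brain. miR-9 had 66484 RPM in brain and from 0 (ovary) through a median of 63.0 to 628 RPM (stomach) in the 12, and 15403 RPM in cerebellum. miR-124 had 5878 RPM in brain, against 2.94 to 67.3 RPM (median 8.81) in the 12 and 21746 RPM in cerebellum. No library of the 12 came near brain for either miRNA, and stomach was the highest of the 12 for both. miR-128 had 6790 RPM in brain, 0 to 129 RPM (median 28.7, highest in oesophagus) in the 12 and 1328 RPM in cerebellum. miR-137 had 1502 RPM in brain and 0 to 68.2 RPM (median 4.92, highest in the library labelled uterus) in the 12, but only 13.8 RPM in cerebellum. Brain exceeded the highest non-neural library 106-fold for miR-9 (95% interval 100.8 to 111), 87.4-fold for miR-124 (75.1 to 102), 52.8-fold for miR-128 (48.4 to 57.6) and 22.0-fold for miR-137 (19.4 to 25.04). Together the 4 made 8.07% of the brain reads other than miR-143 and summed to 80653 RPM, against 10.3 RPM in ovary, 825 RPM in stomach and a median of 137 RPM over the 12. The label of the brain library thus matched its defining markers.

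**Figure D1:**
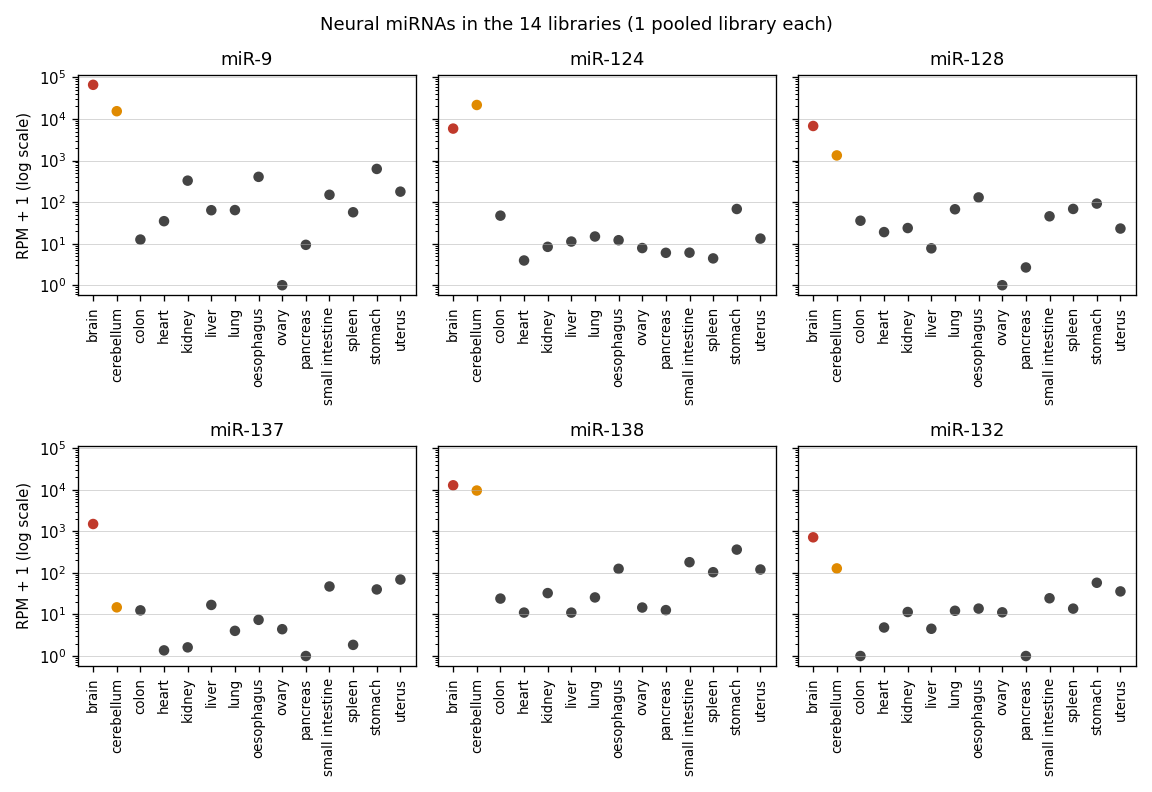
Level of 6 neural miRNAs (RPM + 1, log axis) in each of the 14 libraries, 1 point per library, with brain in red, cerebellum in orange and the 12 non-neural libraries in grey. Brain lies above all 12 grey points in every panel, and for miR-137 cerebellum (13.8 RPM) lies among them.

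Across all names, the brain library was the highest of the 13 for 166 of 449 (37.0%) and above the median of the 12 for 293 (65.3%). It was the lowest for 11 (2.45%; 23 without pancreas) and below the median for 148 (33.0%), and 20 names had no read in brain. Without the libraries labelled colon and uterus, brain was the highest for 175 names and the lowest for 13. The filter itself favours brain, since 68 of the 449 names reached 10 RPM in brain alone among the 13 and so had to stand above the 12. Among the other 381, brain was above every non-neural library for 98 (25.7%), above the median for 225 (59.1%), below the median for 148 (38.8%) and below every library for 11 (2.89%). The median difference over the 449 names, log2 of (brain RPM + 1) over (median RPM + 1), was 1.40, and 0.63 over the 381 names. With other ways of scaling, the names reaching 10 RPM were chosen anew, so both the scale and the names changed. The median then ran from 1.11 (535 names, totals without the 5 most abundant names) to 2.68 (521 names, totals without miR-143 and the let-7 family). The difference of a single miRNA is therefore to be read against these medians rather than 0. Brain also held more names at 10 RPM than any other library, 328 against 112 (pancreas) to 283 (colon) in the 12, and 151 names at 100 RPM against 50 to 137. These counts depend on depth. In the library labelled colon 1 read was worth 11.6 RPM, so all 283 names with a read there counted as reaching 10 RPM.

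**Figure D2:**
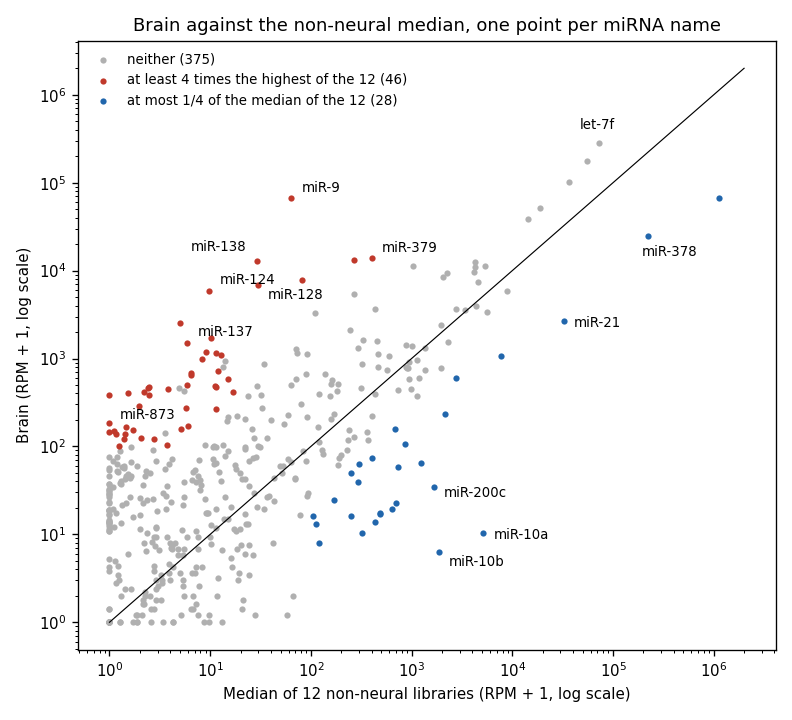
Brain (RPM + 1, vertical) against the median of the 12 non-neural libraries (RPM + 1, horizontal), both on log axes, 1 point per name for 449 names, with the line of equal levels. The 46 names called higher (red) lie to the upper left, led by miR-9, and the 28 called lower (blue) lie below the line, where miR-10a and miR-10b are farthest from it.

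Brain had 151 names at 100 RPM or above, and 46 of them (30.5%) were called higher, which is 10.2% of all 449. The largest ratio belonged to miR-873, a brain miRNA with 185 RPM in brain, at most 0.461 RPM in the 12 (small intestine) and 16.6 RPM in cerebellum. Its fold was 400, with a wide interval of 110 to 3307 because the non-neural value rests on very few reads. miR-384-5p had 147 RPM in brain and at most 1.19 RPM in the 12 (stomach), a 123-fold ratio (41.8 to 596). Neither passed 1.19 RPM in any of the 12, although levels under the 3-read limit cannot be seen in colon, ovary and pancreas. The 46 names became 47 without the libraries labelled colon and uterus, 48 without those of colon, ovary and pancreas, and 39 when each non-neural value was raised to the limit of 3 reads. Under 20 settings that varied the scaling or the libraries, 38 of the 46 were called in each. Leaving out libraries cannot raise the highest of the rest, so no call could be lost in those settings. The 38 thus rest on the other scalings and the 3-read limit.

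The neuronal list had 26 names, of which 22 were in the table and 20 were described. Of the 20, 6 passed the filter through brain alone, so their position was fixed by it. The other 14 all stood above the median of the 12 and 12 of them above the highest, against 59.1% and 25.7% of all names filtered in the same way. Their median difference was 7.61 on the log2 scale, beside 0.63. Of the 16 members with 100 RPM in brain, 13 were called higher, with or without the libraries labelled colon and uterus, against 30.5% of all names at that level. The list summed to 102513 RPM in brain and 68609 RPM in cerebellum, and to 37.6 (ovary) to 2000 RPM (stomach) in the 12, with a median of 475 RPM. The 4 markers described above belong to this list and make 80653 RPM of its brain sum. In pooled tissue RNA, fewer cells of a type and less RNA per cell cannot be told apart.

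Among the abundant neuronal miRNAs, miR-138, which is enriched at synapses, had 12846 RPM in brain and 9602 RPM in cerebellum, against 10.1 to 363 RPM (median 28.2) in the 12. miR-9*, from the opposite arm of the miR-9 hairpin, had 2531 RPM in brain against 0 to 36.6 RPM (median 3.96), again highest in stomach. Brain was 35.4-fold (33.2 to 37.9) and 69.1-fold (56.3 to 85.8) above the highest of the 12 for these miRNAs. miR-383 had 1692 RPM in brain and 0 to 97.6 RPM in the 12, with kidney highest, a 17.3-fold ratio (15.99 to 18.8). miR-129-5p had 992 RPM in brain but 15731 RPM in cerebellum, and 0 to 75.1 RPM (median 7.30) in the 12. The order of brain and cerebellum thus differed between members: miR-124, miR-129-5p and miR-488 (166 RPM in brain, 444 RPM in cerebellum) had the larger value in cerebellum, whereas miR-153 (405 and 12.9 RPM) and miR-137 had theirs in brain. miR-218, known from motor neurons, had 642 RPM in brain, 250 RPM in cerebellum and at most 80.4 RPM (kidney) in the 12, a 7.99-fold ratio (7.28 to 8.78).

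miR-132, whose gene is induced by neuronal activity, had 718 RPM in brain and 127 RPM in cerebellum, against 0 to 56.9 RPM (median 10.9) in the 12. Its fold over stomach, the highest of the 12, was 12.6 (10.7 to 15.0). Of the 6 described members of the activity-regulated list, 4 were called higher (miR-132, miR-134, miR-138 and miR-128), against 30.5% of all names at 100 RPM in brain. All 6 were above the median, against 59.1% of all names at 10 RPM in the 12. Of the 4, all but miR-134 are also members of the neuronal list. miR-181a and miR-181c were not called. miR-181a had 1432 RPM in brain, a median of 887 RPM and 1926 RPM in lung, so that brain ranked 5 of 13. miR-181c was highest in brain, with 177 RPM beside 139 RPM in lung, but below the 4-fold limit.

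Not every name on the neuronal list separated brain from the other tissues. miR-149 had 388 RPM in brain and 428 RPM in oesophagus, and miR-7a had 665 RPM in brain and 963 RPM in small intestine, so brain ranked 2 of 13 for both. miR-7b had 426 RPM in brain and at most 195 RPM (uterus) in the 12, a ratio of 2.18 (2.01 to 2.38), below the 4-fold limit. miR-7 is also known from endocrine cells. miR-124* (53.6 RPM in brain, at most 0.796 RPM in the 12), miR-135a (68.1 RPM, at most 3.995 RPM) and miR-433 (65.4 RPM, at most 6.77 RPM) had large ratios but were under 100 RPM in brain.

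Glial miRNAs divided by hairpin. miR-338-3p, which promotes oligodendrocyte maturation, had 586 RPM in brain and 549 RPM in cerebellum, against 0 to 111 RPM (median 14.2, highest in oesophagus) in the 12. The opposite arm, miR-338-5p, had 482 RPM in brain and at most 108 RPM in the 12. Both arms were called higher, with folds of 5.27 (4.77 to 5.83) and 4.45 (4.02 to 4.94). miR-219-3p, from an oligodendrocyte miRNA gene, had 383 RPM in brain, 757 RPM in cerebellum and at most 6.77 RPM (stomach) in the 12, a 56.5-fold ratio (35.2 to 97.3). In contrast miR-23a had 395 RPM in brain, below its non-neural median of 434 RPM, and miR-23b had 732 RPM beside 573 RPM, with lung highest for both. miR-204, a miRNA of choroid plexus and pigment epithelium, had 34.9 RPM in brain, 124.6 RPM in cerebellum and 1 read in the library labelled colon, its highest of the 12.

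Further names called higher belonged to none of these lists. miR-3099 had 412 RPM in brain and at most 12.8 RPM (uterus) in the 12, and miR-1224 had 287 RPM and at most 9.16 RPM (stomach). Their folds were 32.2 (24.2 to 43.8) and 31.4 (20.8 to 49.7). miR-330 had 468 RPM in brain, 876 RPM in cerebellum and at most 47.7 RPM in the 12, where it was highest in lung.

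Of the 73 names listed for the Dlk1-Dio3 region, which is imprinted and expresses its miRNAs from the maternal chromosome, 68 were in the table and 51 were described. Of the 51, 20 passed the filter through brain alone and so had to stand above the 12. The other 31 all stood above the median of the 12 in brain and 28 of them above the highest, against 59.1% and 25.7% of all names filtered in the same way. Their median difference was 5.602 on the log2 scale, beside 0.63. Of the 27 members with 100 RPM in brain, 22 were called higher (23 without the libraries labelled colon and uterus), against 30.5% of all names at that level. The count called higher was 20 with median-of-ratios size factors and 39 with totals that left out miR-143 and let-7, so its size depends on the scaling. The list summed to 53961 RPM in brain and 87434 RPM in cerebellum, and to 199 (kidney) through a median of 1392 to 8120 RPM (stomach) in the 12. Oesophagus, at 7128 RPM, was close to stomach, and both remained well below brain.

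The ratio differed widely within the region. miR-379 had 13742 RPM in brain, 2823 RPM in cerebellum and 56.9 to 1172 RPM (median 399) in the 12. Its fold over stomach was 11.7 (11.3 to 12.2). miR-127, which targets the paternally expressed Rtl1 transcript opposite to it, had 13059 RPM in brain, 51796 RPM in cerebellum and 32.6 to 2867 RPM (median 268) in the 12. For miR-127 the fold over stomach was 4.56 (4.45 to 4.67), so it passed the 4-fold limit narrowly in spite of its abundance. miR-434-3p had 7835 RPM in brain and 8731 RPM in cerebellum, with 4.53 to 1560 RPM (median 81.4) in the 12. The highest of these was the shallow library labelled colon, and the next highest had 432 RPM. miR-541 (5348 RPM in brain, 1789 RPM in oesophagus), miR-411 (3313 and 1359 RPM) and miR-381 (935 and 617 RPM) were highest in brain but below the limit, each with oesophagus next.

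Several less abundant members of the region had larger ratios than miR-379, and others, such as miR-434-5p (270 RPM in brain, 4.33-fold) and miR-376b (4.80-fold), had smaller ones. miR-323-3p had 100 RPM in brain and at most 2.66 RPM (uterus) in the 12, a 37.6-fold ratio (20.3 to 78.9). miR-770-3p reached 30.5-fold (18.9 to 52.6), miR-369-5p 17.7-fold (11.5 to 28.8) and miR-410 17.3-fold (14.3 to 20.9). miR-410 had 503 RPM in brain and 31.4 RPM in cerebellum, whereas miR-382 had 1101 RPM in brain and 2331 RPM in cerebellum, with at most 99.1 RPM (stomach) in the 12. miR-134, which acts on dendritic spines, had 415 RPM in brain, 2738 RPM in cerebellum and at most 83.2 RPM in the 12, a ratio of 4.98 (4.32 to 5.77). miR-376a had 478 RPM and miR-376b had 388 RPM in brain, beside medians of 1.49 and 1.45 RPM, and these 2 names carry different seeds, as printed above. Among the described members, miR-299, miR-299* and miR-485 had a non-neural library above brain.

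**Figure D3:**
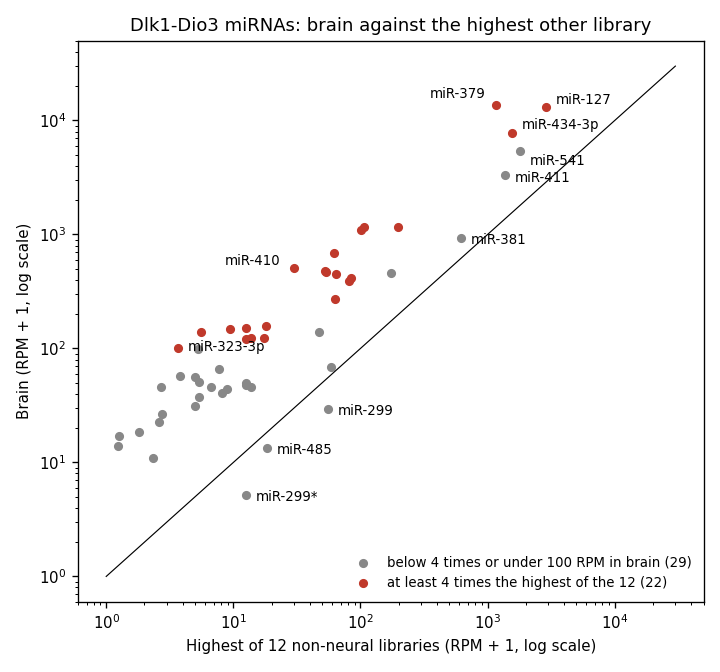
Brain (RPM + 1) against the highest of the 12 non-neural libraries (RPM + 1) for the 51 described names of the Dlk1-Dio3 region, both on log axes, with the line of equal levels. The 22 names called higher are red, and miR-299, miR-299* and miR-485 fall below the line.

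Stomach was the highest non-neural library for 23 of the 46 names called higher (50%), whereas it was the highest of the 12 for 71 of all 449 names (15.8%). Oesophagus followed with 7 names, the libraries labelled colon and uterus with 6 each, kidney with 2, and lung and small intestine with 1 each. No name called higher had its next level in heart, liver, ovary, pancreas or spleen. Without colon, ovary and pancreas, stomach held the highest value for 28 of the 46. The stomach value of the neuronal list was 2000 RPM, which is 0.2% of its reads other than miR-143.

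The names whose profile over the 13 libraries was most like that of a marker are given as a description, by Spearman's rho, over libraries that differ in depth. For miR-9 these were miR-598 (0.923), miR-212-5p (0.922), miR-496 (0.917), miR-369-3p (0.912) and miR-539-5p (0.896). For miR-128 they were miR-338-5p (0.918), miR-335-5p (0.901), miR-379* (0.899), miR-324-5p and miR-361* (both 0.889). For miR-137 miR-770-3p came first (0.844), followed by miR-376a, miR-384-3p, miR-136 and miR-485. For miR-124 miR-125a-5p came first (0.824), for which brain, at 1123 RPM, was below 2 of the 12, colon being highest at 1964 RPM. It was followed by miR-337-5p, miR-409-5p, miR-330* and miR-676.

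In reads, the let-7 family dominated the brain library. This family, which restrains growth and stem cell genes, held 68.9% of brain reads other than miR-143, against 6.75% (heart) to 87.3% (ovary) in the 12. let-7f had 285484 RPM in brain (28.5%), let-7c 177959 RPM (17.8%) and let-7a 101736 RPM (10.2%). All 9 members stood above the non-neural median, against 59.1% of all names at 10 RPM in the 12. Their median difference was 1.67, beside 0.63 for those names and 1.40 for all 449. None of the 9 was called higher, against 30.5% of all names at 100 RPM in brain. let-7e and let-7g, 2 of the 9, were highest in brain of the 13 libraries, against 25.7% of all names at 10 RPM in the 12. They had 11352 RPM (ovary next, at 6975 RPM) and 38851 RPM (colon next, at 34213 RPM). This order depends on the scaling: none of the 9 was first with median-of-ratios factors or with totals that left out the 5 most abundant names, all 9 were first with miR-143 in the totals, and 6 were first without colon, ovary and pancreas. The members are near-identical and how shared reads were counted is not given in the sources used here, so their separate values are uncertain.

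Other broadly expressed families also gave no call. The 3 members of the miR-29 family, which targets collagen messengers and is known to rise as neurons mature, were highest in brain. Of all names at 10 RPM in the 12, 25.7% were. miR-29a had 8350 RPM in brain and at most 5777 RPM (colon), and miR-29c had 503 RPM and at most 315 RPM (kidney). With median-of-ratios factors, 1 of the 3 kept the first place. The 5 members of the miR-30 family were above the median, against 59.1% of all names at 10 RPM in the 12. None of the 5 was first: miR-30a had 11142 RPM in brain and 61446 RPM in lung. The 5 together had 24322 RPM in brain and 103816 RPM in kidney, so the 147 RPM of miR-384-5p, which shares the seed of miR-30a, were few beside them.

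Names matched to a sequence were also summed by seed. Of 96 seeds with 100 RPM or more in brain, 39 (40.6%) were called higher, and 40 without the libraries labelled colon and uterus. Among these matched names, seeds led by miR-873, miR-9, miR-9*, miR-128 and miR-488 had the largest ratios over the highest of the 12, and each was carried by 1 described name. Of the 39, a pair held more than 1 described name: miR-132 with miR-212-3p, at 770 RPM in brain and at most 68.5 RPM in the 12, and miR-376b* with miR-376c*, at 1199 and at most 106 RPM. Of the 53 seeds whose non-neural median reached 100 RPM, 14 (26.4%) were called lower, or 13 without those libraries. Of the 14, 6 held several described names. These were miR-10a with miR-10b, miR-200b with miR-200c and miR-429, and miR-141 with miR-200a. The others were miR-199a-3p with miR-199b, miR-148a with miR-148b and miR-152, and miR-192 with miR-215. The names miR-199a-3p and miR-199b have the same mature sequence, so their sum may count the same reads more than once.

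Of the 102 names with a non-neural median of 100 RPM or more, 28 (27.5%) were called lower in brain, which is 6.24% of all 449. Of these, 7 were also below every library of the 12: miR-10a, miR-10b, miR-199a-3p, miR-199b, miR-152, miR-378 and miR-148a. With miR-143 kept in the totals, miR-152, miR-378 and miR-148a were no longer below every library. Both counts take miR-199a-3p and miR-199b as separate names, although their mature sequence is the same. The count of 28 was 26 without the libraries labelled colon and uterus, 33 without colon, ovary and pancreas, and 15 when miR-143 was kept in the totals. In 19 settings of scaling or libraries, 14 of the 28 were called in each.

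miR-10a and miR-10b had the largest deficits. miR-10a had 9.44 RPM in brain, from 47 reads, and 92.3 RPM in cerebellum, against 83.7 (pancreas) to 32720 RPM (kidney) in the 12, with a median of 5154 RPM. miR-10b had 5.22 RPM in brain and 36.9 RPM in cerebellum, against 11.9 to 13711 RPM (median 1851) in the 12. The brain value lay under all 12 for both, 546-fold and 355-fold below the median. The miRNAs of the Hox clusters as a list were below the median in 5 of 5, against 38.8% of all names at 10 RPM in the 12, and 3 of the 5 were below every library of the 12, against 2.89%. Of the 2 with a non-neural median of 100 RPM, both were called lower, against 27.5% of all names at that level. The names below every library were miR-10a, miR-10b and miR-196b, the last with 2 reads in brain (0.402 RPM) and a median of 19.6 RPM. That median is under 100 RPM, so miR-196b was not called lower. miR-196a had 1 read in brain and a median of 26.8 RPM, and miR-615-3p had none.

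All 5 members of the miR-200 family, which keeps epithelial cells from turning mesenchymal, were called lower in brain, against 27.5% of all names with a non-neural median of 100 RPM. miR-200c had 33.9 RPM in brain, against 31.1 (liver) to 16273 RPM (small intestine) in the 12 and a median of 1667 RPM, a 49.1-fold deficit. miR-200b had 21.7 RPM in brain and a median of 696 RPM, and miR-141 had 16.7 RPM and a median of 481 RPM. Brain was not the lowest: heart, liver and, for miR-200b, ovary had similar or lower values. Summed over the 5, brain had 100 RPM, close to heart at 87.3 RPM and liver at 118 RPM, beside a median of 4716 RPM. All 5 were called lower under each of the 4 other scalings. The call for miR-429 rests on the choice of libraries: its difference of -3.98 on the log2 scale became -0.59, and the call was lost, when kidney, lung, oesophagus, small intestine, stomach or the library labelled uterus was left out. miR-183 (15.9 RPM in brain, median 483 RPM) and miR-182 (64.0 RPM, median 1224 RPM), of a cluster known from sensory organs, were 30.4-fold and 19.1-fold below the median, and cerebellum had more of each, 146 and 368 RPM.

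**Figure D4:**
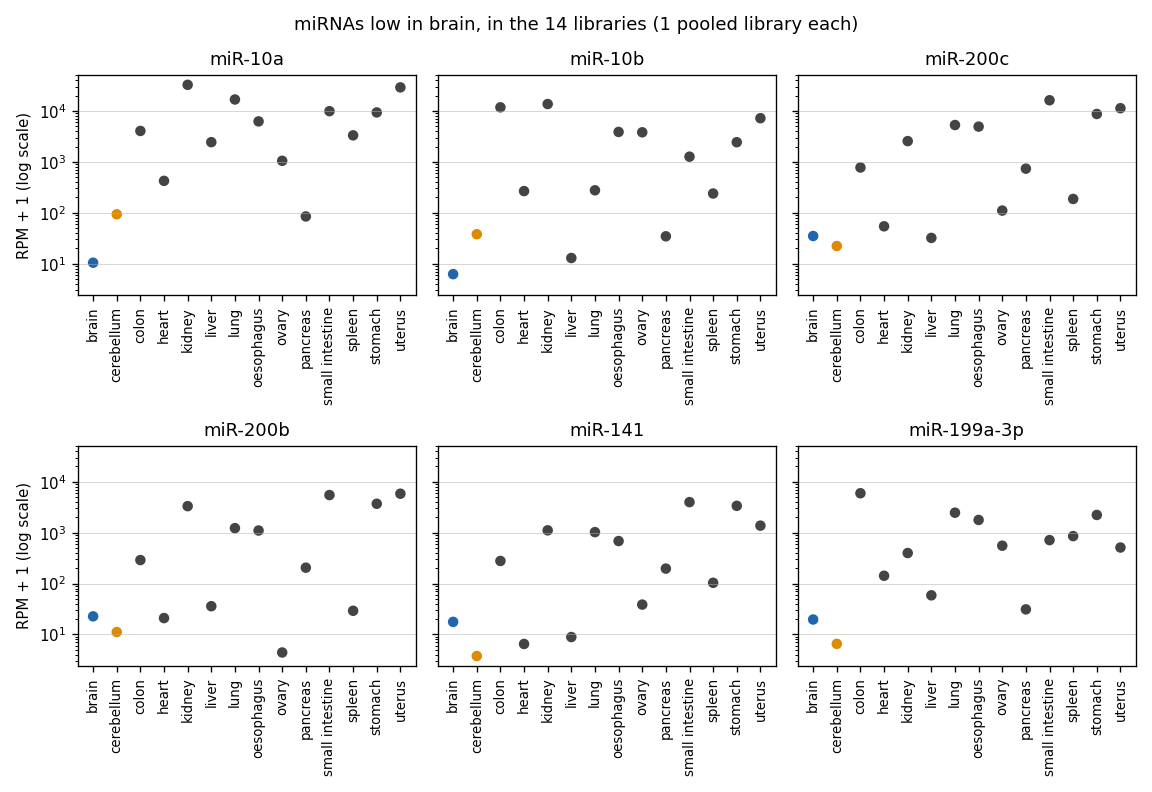
Level of 6 miRNAs called lower in brain (RPM + 1, log axis) in each of the 14 libraries, 1 point per library, with brain in blue, cerebellum in orange and the 12 non-neural libraries in grey. For miR-10a, miR-10b and miR-199a-3p brain lies under all 12 grey points, and for miR-200c, miR-200b and miR-141 at least 1 grey point (heart, liver or ovary) lies under it.

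Among miRNAs of smooth muscle and fibroblasts, miR-199a-3p had 18.7 RPM in brain and 5.54 RPM in cerebellum, against 30.1 (pancreas) to 5962 RPM (colon) in the 12, a 34.0-fold deficit from a median of 634 RPM. miR-199b has the same mature sequence and had 46 reads in brain beside 93 for miR-199a-3p, a ratio near 2 that recurred in every library, so the 2 names are 1 measurement. miR-214, from the same transcript as miR-199a, had 1 read in brain and a median of 57.1 RPM. All 5 members of the list were below the median, against 38.8% of all names at 10 RPM in the 12, by a median of -4.05 on the log2 scale. miR-143, the most abundant of them, had 67472 reads per 1000000 other reads in brain, against a median of 1114770, and was 16.5-fold lower.

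miR-21, common in growing and inflamed tissue, had 2686 RPM in brain and 1740 RPM in cerebellum, against 394 to 58775 RPM (median 32412) in the 12, a 12.1-fold deficit. Pancreas was below brain for miR-21. miR-378, hosted by the metabolic co-activator gene Ppargc1b, had 25026 RPM in brain, under all of the 12 (47572 to 495327 RPM, median 224543), while cerebellum had 361515 RPM. miR-148a had 1080 RPM in brain, against 1556 to 651758 RPM (highest in pancreas, median 7664), and miR-152, with the same seed, had 235 RPM against 588 to 9150 RPM (median 2164). The cerebellum values of 317 and 113 RPM were lower still for these 2. miR-28* (57.2 RPM in brain, median 729 RPM) had 855 RPM in cerebellum, so low values in brain were not always shared with cerebellum.

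Markers of other tissues were mixed in brain and seldom at 0. Below the median were 2 of 2 endothelial names, both from the miR-126 hairpin, and 2 of 3 erythroid names. So were 1 of 2 squamous epithelial and 3 of 4 intestinal and hepatic names. These counts compare with 38.8% of all names at 10 RPM in the 12. Above the median were 3 of 4 pancreas and 3 of 7 striated muscle names, against 59.1%. Leukocyte miRNAs were below the median for 4 of 6, against 38.8% of all names at 10 RPM in the 12. Of the 3 with a non-neural median of 100 RPM, against 27.5% of all such names, miR-142-3p (72.9 RPM in brain, median 401 RPM, 22075 RPM in spleen) was called lower. Brain ranked 2 of 13 for miR-150, with 157 RPM. The endothelial miR-126-3p had 5864 RPM in brain and a median of 8934 RPM. The erythroid miR-451 had 90.3 RPM in brain and a median of 128 RPM. Intestinal miR-192 (598 RPM in brain, median 2782 RPM) and miR-215 (155 and 680 RPM) were called lower by 4.65-fold and 4.39-fold, and epidermal miR-203 (107 and 849 RPM) by 7.95-fold. With miR-143 kept in the totals, or with let-7 also left out, none of these last 3 miRNAs nor miR-142-3p was called lower, and miR-192 also lost its call with totals that left out the 5 most abundant names. On the log2 scale the difference of miR-192 went from -2.22 to -1.43, ending the call, when kidney, liver, lung, small intestine, stomach or the library labelled uterus was left out. That of miR-215 went from -2.13 to -1.79, with the same outcome, without heart, lung, oesophagus, small intestine, stomach or the library labelled uterus. The median difference was -1.56 for the leukocyte list, -0.50 for the erythroid list and -0.75 for the endothelial list. It turned positive for the erythroid list with totals that kept miR-143 or left out let-7, and for the endothelial list with the latter.

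**Figure D5:**
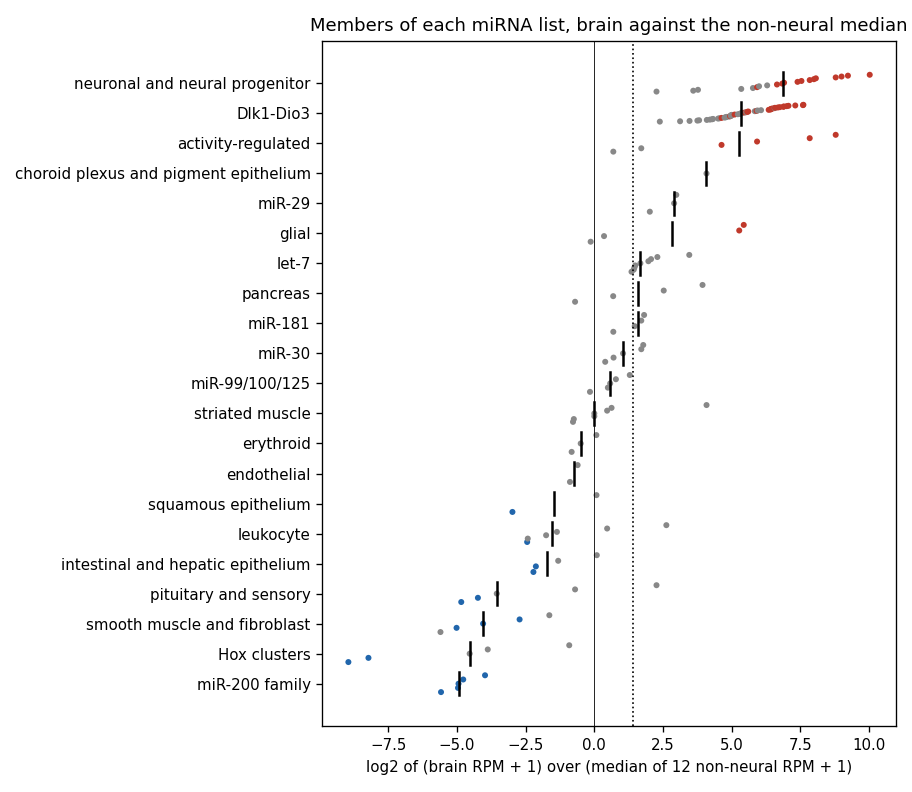
Difference of each described miRNA, log2 of (brain RPM + 1) over (median of the 12 + 1), by list, with names called higher in red, called lower in blue, others in grey, a bar at each list's median and a dotted line at 1.40, the median of all 449 names. The neuronal list (6.87) and the Dlk1-Dio3 list (5.35), the only lists with 10 or more described members, lie to the right of the dotted line. Both medians include names that passed the filter through brain alone, 6 of 20 and 20 of 51, whose position was fixed by it. The medians without these names are given in the text. The miR-200 (-4.94) and Hox (-4.54) lists lie farthest to the left of all.

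Close to the 4-fold limits, miR-338-5p (4.45-fold) and miR-434-5p (4.33-fold) were the last names called higher, and miR-222 (3.22-fold, 875 RPM in brain and 272 RPM in lung) and miR-139-5p (3.10-fold) the first not called. On the other side, miR-192 and miR-215 were the last called lower, and miR-145 (3.13-fold) and miR-17 (3.03-fold) the first not called. miR-145 comes from the same transcript as miR-143.

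The share of each hairpin's reads that came from the second-named arm does not depend on scaling. Of 122 hairpins with 100 reads in brain and in at least 3 of the 12, the brain share lay outside the range of the compared non-neural libraries for 39, above it for 22 and below it for 17. Without the libraries labelled colon and uterus it was outside for 38 of 116. Any library can fall outside the range of a few others by position alone. The same count for another library was not made, so 39 is not shown to be particular to brain. miR-140, a cartilage miRNA, gave 67.5% of its reads as miR-140* in brain (95% interval 66.3 to 68.7), against 89.2% to 99.6% in 11 non-neural libraries and 97.8% in cerebellum. For the linked miR-221 and miR-222, brain gave 5.57% (5.01 to 6.18) and 0.954% (0.689 to 1.29) star reads, under ranges of 18.3% to 36.0% in 9 libraries and 3.82% to 10.6% in 6. Brain thus had a smaller star share than any compared non-neural library for each of these hairpins. miR-744 went the other way, with 8.33% star reads in brain (4.38 to 14.1, from 12 of 144 reads) and 0.138% to 0.549% in 5 libraries. miR-486* (0.61%) and miR-150* (0.508%) were below their ranges on 2 and 4 star reads. How the reads of each arm were assigned is not given in the sources used here.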

How the data were processed

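The authors deposited 1 table of unscaled, whole-number counts of reads, with a row for each mature miRNA. How reads were trimmed, aligned and assigned, and against which miRNA release and build, is not given in the sources used here. Total RNA was extracted with Trizol, pooled and made into Illumina libraries, per the labels' protocols. Counts were divided by the library total without miR-143 and multiplied by 1000000 (Python 3.11.15, pandas 2.3.3, numpy 2.4.6, figures with matplotlib 3.10.9). Intervals came from scipy 1.17.1: exact Poisson for levels, exact conditional binomial for ratios and exact Clopper-Pearson for arm shares, at 95%. Reads carry no molecular identifiers, so intervals and the 3-read limit cover counting error only. The rules of size were run on simulated counts that varied by counting error only. That run cannot show how the rules perform where animals or libraries of a tissue differ. RefSeq sequences (GRCm38.p6) were matched by name for 281 names and, for 358 older names, by a hand-made assignment to the current arm name. Mouse chromosome 18 miRNAs were left out of the sequences.

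The miRNAs named in the text were taken from these sets: list members, the 10 most abundant in brain, the 20 with the largest ratio in each direction, the 5 on each side of each limit, the 6 hairpins with the most divergent arm share, the 5 leading seeds and the 5 profiles most like each of the 4 markers. Of the list members, only some are named. miR-330 was chosen after its values were seen. The comparison, rules and lists were chosen with earlier results of these data known. Of the list members, 9 were absent from the table as spelled. Alternatives were other scalings, pseudocounts, minimum levels, folds and sets of libraries.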

Additional observations from a re-analysis of the deposited data

How the results depend on the processing

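No paired analysis was possible because each tissue has 1 library and the results come from no test. The depth of the libraries labelled colon, ovary and pancreas limits every statement on low non-neural levels. The runs without colon and uterus, the filter without brain, the 3-read limit and the other scalings of seeds were chosen after the data were seen. Causes of the changes below were not tested.

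The count of 46 names higher in brain was 91 with totals that left out miR-143 and let-7, 98 with a minimum of 10 RPM, 13 with a minimum of 1000 RPM and 25 with a fold of 10. The count of 28 lower names was 15 with miR-143 in the totals, 10 with a minimum of 1000 RPM, 15 with a fold of 10 and 0 when brain was set against the minimum of the 12. The 11 names below every library became 7 with miR-143 in the totals, 24 with median-of-ratios factors, 22 with totals without the 5 most abundant names, 4 without let-7 and 35 without colon, ovary and pancreas. Seeds called higher went from 39 to 72 without let-7, and seeds called lower from 14 to 9 with miR-143 in the totals. Leaving out 1 library at a time gave 46 to 49 higher names, 23 to 29 lower names, 166 to 175 above every library and 11 to 23 below every library, the last being 23 without pancreas. In these runs the counts of higher names and of names above every library could only stay or rise. With 10 RPM required in at least 1 of the 12, brain was above every library for 98 names in place of 166.

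Of 1896 values of called miRNAs under these settings, 1875 kept their direction, but for many of them this was fixed in advance. Another minimum level, fold or pseudocount cannot turn the direction. Leaving out libraries, or taking the second highest, cannot turn that of a name called higher. The count is therefore no measure of stability. The 21 others are the names called lower that were not below every library of the 12. They came from setting brain against the minimum of the 12, where log2 of brain over that minimum was positive: miR-141 1.44, miR-142-3p 2.20, miR-143 0.69, miR-143* 3.73, miR-145* 3.0048, miR-182 1.13, miR-183 0.088, miR-192 0.86, miR-199a-5p 2.59, miR-200a 0.90, miR-200b 2.36, miR-200c 0.12, miR-203 3.26, miR-21 2.77, miR-215 2.11, miR-25 1.62, miR-28 1.16, miR-28* 2.63, miR-423-5p 1.38, miR-429 2.33 and miR-92a 1.14.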

Other observations

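The striated muscle and pancreas lists held single names with a high rank in brain. miR-206, a skeletal muscle miRNA, had 490 RPM in brain and 7482 RPM in cerebellum, and only oesophagus, at 55270 RPM, exceeded brain among the 12, whose median was 27.98 RPM. Other muscle names were mixed. miR-1 had 3374 RPM in brain, below its median of 5659 RPM and far below heart at 405138 RPM. miR-133a had 12.2 RPM beside a median of 21.7 RPM. miR-133b and the heart miRNA miR-499 were above their medians, but on only 14 and 5 reads in brain. The heart miRNAs miR-208a-3p and miR-208b had no read in brain. miR-216a had 53.8 RPM and miR-217 had 62.2 RPM in brain, beside 610 and 3091 RPM in pancreas, 208 and 289 RPM in the library labelled colon and medians of 2.58 and 9.99 RPM. For miR-217 the library labelled uterus, at 82.0 RPM, was also above brain. miR-375, an endocrine miRNA on the same list, had 10.04 RPM in brain, below its median of 16.9 RPM. The hepatocyte miRNA miR-122 had 87.7 RPM in brain and a median of 82.4 RPM, with 466024 RPM in liver.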
